A study of Mus musculus with 12 samples.

Results

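The Runx transcription factors, their shared partner Cbfb and the related corepressor Runx1t1 were followed in mouse leukemia in which Rictor, a subunit that the kinase complex mTORC2 cannot do without, had been deleted or left intact. The genes named were 5, and the array carried 15 probe sets (short sets of probes read as 1 value) that the platform annotation ties to 1 of them alone, out of 34958 probe sets with 1 gene symbol. Runx1 had 6, Runx3 had 2, Cbfb had 1, Runx1t1 had 6 and Runx2 had 0, so 4 genes could be described. The genes were chosen with their intensities on these 12 arrays known, so their differences between groups are a description. No p-value of a member is printed, and counts of members past a threshold are stated beside the share of all probe sets without being read as a test.

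The arrays formed 4 groups of 3, which were MLL-NRIP3 leukemia with Rictor deleted (RictorΔ/Δ), MLL-NRIP3 leukemia with wild-type Rictor (Control), MLL-AF9 leukemia with RictorΔ/Δ, and MLL-AF9 leukemia with Control. All 4 carry a fusion of the MLL gene and were sorted by flow cytometry as K+G– leukemia cells from the marrow of mice in the first round of transplantation, once most white blood cells in peripheral blood were CD45.2+. The sources used here do not say how Rictor was deleted, in which cells the recombination took place, the age of the mice, or whether arrays within a group represent different mice, so errors measure the spread between these arrays and may be technical. The question put to the arrays was which molecular events follow when MLL-AF9 cells lose Rictor, and MLL-NRIP3 leukemia served as a further model.

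Runx1, Runx2 and Runx3 bind DNA through a Runt domain. Cbfb does not bind DNA itself, but it holds the Runt domain in its DNA-binding form and protects Runx1 from degradation. Runx1 is required for the emergence of blood stem cells in the embryo and shapes platelet, myeloid and lymphoid differentiation in the adult, Runx2 is the master factor of bone, and Runx3 acts in T cells and NK cells. Human leukemias carry fusions of both partners of this complex, RUNX1 with RUNX1T1 (also called ETO) and CBFB with a myosin gene, and the normal Runx1 protein has been described as a support for leukemias driven by MLL fusions.

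The 3 Runx genes share a stretch of promoter that holds their own recognition sequence, and it is shown because it sets them apart from Cbfb. In RefSeq promoter windows of assembly GRCm38.p6 (250 bases before to 50 after a start site), 1 run of 18 bases is common to the upstream start sites of Runx1, Runx2 and Runx3. It stands in capitals in the 30 bases below, each read 5′ to 3′ on the strand of its gene.
Runx1: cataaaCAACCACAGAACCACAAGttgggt
Runx2: cacaaaCAACCACAGAACCACAAGtgcggt
Runx3: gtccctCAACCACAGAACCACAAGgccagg
The Runx1 window lies at chr16:92826025-92826054 on the minus strand, with the run beginning 26 bases after the start site. That of Runx2 lies at chr17:44814583-44814612 on the minus strand, 21 bases after the start. That of Runx3 lies at chr4:135120503-135120532 on the plus strand, and its run begins 136 bases before the start (offset -136). Each run holds ACCACA in 2 places, the reverse complement of the Runx recognition sequence TGTGGT. Of 32851 promoter windows, 4 (0.0122%) held the whole run on either strand, those of the 3 Runx genes and of Gm16225. TGTGGT on either strand was found in 16.8% of all windows, with at least 2 copies in 1.81%. The upstream windows of Runx1, Runx2 and Runx3 held 2, 3 and 2 copies, and the Cbfb window and the internal start sites of Runx1 and Runx3 held 0. These are matches of letters and do not show binding.

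Runx1 spans chromosome 16 from 92601466 to 92826074 in GRCm38.p6, Runx3 spans chromosome 4 from 135120645 to 135177990, Cbfb spans chromosome 8 from 105170674 to 105217989 and Runx1t1 spans chromosome 4 from 13742628 to 13895056. The positions of the probes within these genes are not given in the files, so no probe set could be tied to an exon or an isoform. Probe sets 1422864_at and 1422865_at of Runx1 were designed from 1 shared representative sequence, and 1452531_at and 1452530_a_at from another. The 6 Runx1 values are therefore not 6 independent measurements.

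The deposited values are linear intensities. Array medians were 13.6 to 14.2 in MLL-NRIP3 leukemia and 8.16 to 8.36 in MLL-AF9 leukemia, and the models appear to have been normalized separately. MLL-NRIP3 Control arrays 1 and 2 stood apart, with 5′ to 3′ signal ratios of Gapdh of 0.562 and 0.738, against 0.881 to 0.965 on the other 4 arrays of that model, so the MLL-NRIP3 differences of the tested probe sets, and of the pathway genes called there, are also given without them. MLL-AF9 Control array 3 had the lowest Gapdh ratio of its model, 0.901 against 1.01 to 1.09 on the others. Its Actb ratio was also the lowest there, 0.521 against 0.607 to 0.667. In MLL-AF9 leukemia the sex-linked Xist averaged 98.5 ± 95 in RictorΔ/Δ and 2387 ± 48.5 in Control arrays (SD, n = 3 each), so genotype and sex of the donor cells cannot be told apart there. Rictor itself had 5 probe sets, 4 of them tested in each model, and 0 were called in either. Its brightest, 1435698_at, read 84.5, 107 and 121 in MLL-NRIP3 RictorΔ/Δ arrays against 87.5, 111 and 139 in Controls, and 77.9, 88.1 and 96.4 in MLL-AF9 RictorΔ/Δ arrays against 84.4, 92.4 and 83.7 in Controls. The sources used here do not give the deleted part of Rictor, so these probe sets are no check of the genotype labels. Kit, a receptor of blood progenitors, averaged 524 ± 102 in MLL-NRIP3 RictorΔ/Δ and 341 ± 43.7 in Control arrays, and 143 ± 12.2 in MLL-AF9 RictorΔ/Δ and 195 ± 36.4 in Control arrays (SD, n = 3 each). Ptprc, the pan-leukocyte marker CD45, read 1448 or more on every array.

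Runx1 was higher in all RictorΔ/Δ than in all Control arrays of MLL-NRIP3 leukemia on 5 of its 6 probe sets, against 9.75% of all probe sets tested. It was lower in all RictorΔ/Δ arrays of MLL-AF9 leukemia on 3 of the 6, against 14.2% of all, with the other 3 overlapping. Nothing is read from these counts, since the values led to the choice of the genes. The brightest Runx1 probe set, 1422864_at, was higher in the first model and lower in the second. It read 229.5, 190.2 and 221 in MLL-NRIP3 RictorΔ/Δ arrays and 116, 132 and 111 in MLL-NRIP3 Controls. All 3 RictorΔ/Δ arrays lay above all 3 Controls, at means of 214 ± 20.7 and 119.8 ± 10.8 (SD, n = 3 each). In MLL-AF9 leukemia it read 180.7, 160.8 and 137 in RictorΔ/Δ arrays and 181.4, 199 and 248 in Controls. There all 3 RictorΔ/Δ arrays lay below all 3 Controls, although RictorΔ/Δ array 1 and Control array 1 were nearly equal. On the log2(intensity + 16) scale the difference of RictorΔ/Δ minus Control was 0.76 ± 0.14 (SE of the moderated limma fit, as for all SE below) in MLL-NRIP3 leukemia, 1.69-fold, and -0.36 ± 0.11 in MLL-AF9 leukemia, 0.78-fold. Against MLL-NRIP3 Control array 3 alone the first value was 0.85. Without MLL-AF9 Control array 3, the array with the lowest Gapdh ratio of that model, the second was -0.24. In bulk RNA a change per cell and a change in the share of cells that express Runx1 cannot be told apart.

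**Figure D1:**
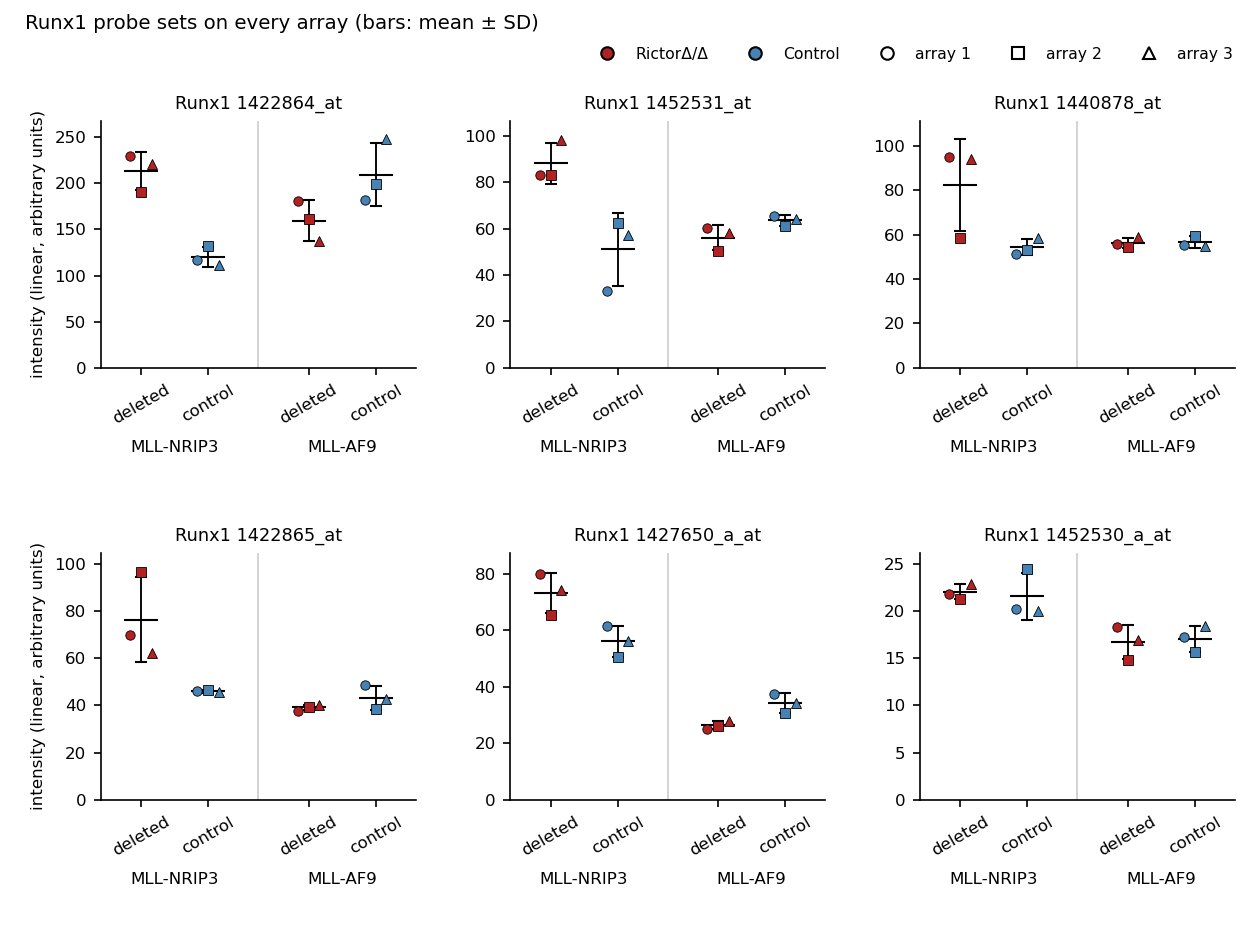
Linear intensity of the 6 Runx1 probe sets on every array, with RictorΔ/Δ arrays in red left of Control arrays in blue, MLL-NRIP3 left of MLL-AF9, and bars for the mean ± SD of 3 arrays. On 1422864_at the MLL-NRIP3 RictorΔ/Δ arrays sit at 190.2 and above and their Controls at 132 and below, whereas the MLL-AF9 RictorΔ/Δ arrays sit at 180.7 and below and their Controls at 181.4 and above.

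The second Runx1 probe set, 1452531_at, had the same order of genotypes within each model. It read 83.1, 83.1 and 98.2 in MLL-NRIP3 RictorΔ/Δ arrays against 33.3, 62.6 and 57.4 in Controls, a log2 difference of 0.66 ± 0.19. Control array 1, with the low Gapdh ratio, was the lowest of the 6, and without Control arrays 1 and 2 the difference was 0.50. In MLL-AF9 leukemia it read 60.2, 50.2 and 58.2 in RictorΔ/Δ arrays against 65.5, 61.2 and 64 in Controls. The groups did not overlap, but the step was small, at a log2 difference of -0.14 ± 0.08, and -0.08 without RictorΔ/Δ array 2.

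Probe set 1427650_a_at also separated the groups in both models. It read 79.7, 65.5 and 74.3 in MLL-NRIP3 RictorΔ/Δ arrays and 61.3, 50.4 and 56.3 in Controls, a log2 difference of 0.31 ± 0.14, and 0.30 without Control arrays 1 and 2. It read 25, 26.1 and 27.9 in MLL-AF9 RictorΔ/Δ arrays and 37.5, 30.7 and 34.4 in Controls, a log2 difference of -0.24 ± 0.08. These low readings lie near the added 16, so the log2 scale understates the step here, and the ratio of the mean intensities in MLL-AF9 leukemia was 0.770.

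Of the remaining Runx1 probe sets, 1422865_at and 1440878_at separated the genotypes in MLL-NRIP3 leukemia and overlapped in MLL-AF9 leukemia, and 1452530_a_at overlapped in both. On 1422865_at the values were 69.9, 96.7 and 62.4 in MLL-NRIP3 RictorΔ/Δ arrays and 46.0, 46.6 and 45.5 in Controls, a log2 difference of 0.56 ± 0.16, and 0.57 without Control arrays 1 and 2. The 3 Controls lay within about 1 unit of each other, and the spread was in the RictorΔ/Δ arrays. In MLL-AF9 leukemia the same probe set read 37.8, 39.4 and 40.2 in RictorΔ/Δ arrays and 48.6, 38.5 and 42.8 in Controls, which overlapped. On 1440878_at the values were 95.2, 58.6 and 94 in MLL-NRIP3 RictorΔ/Δ arrays and 51.4, 53.1 and 58.6 in Controls. Here RictorΔ/Δ array 2 (58.59) lay above Control array 3 (58.58) only in the second decimal, so the separation rests on the other 2 RictorΔ/Δ arrays. Its log2 difference was 0.46 ± 0.18 in MLL-NRIP3 leukemia, 0.38 without Control arrays 1 and 2, and 0.00 in size in MLL-AF9 leukemia, where RictorΔ/Δ arrays read 54.5 to 58.9 and Controls 54.8 to 59.6. On 1452530_a_at the values were 21.3 to 22.9 in MLL-NRIP3 RictorΔ/Δ arrays and 20.0 to 24.4 in Controls, and 14.8 to 18.3 in MLL-AF9 RictorΔ/Δ arrays and 15.6 to 18.4 in Controls. Its log2 difference in MLL-NRIP3 leukemia was 0.02 ± 0.09, and 0.08 without Control arrays 1 and 2. This probe set overlapped in both models, although it shares its representative sequence with 1452531_at, which did not.

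Of the 15 probe sets, 9 were bright enough to be tested, the 6 of Runx1, the 2 of Runx3 and that of Cbfb. In MLL-NRIP3 leukemia all 3 RictorΔ/Δ arrays exceeded all 3 Controls on 6 of the 9, against 9.75% of all probe sets tested. Set against Control array 3 alone, they did so on 7 of the 9, against 23.5% of all. In MLL-AF9 leukemia all 3 RictorΔ/Δ arrays lay below all 3 Controls on 3 of the 9, against 14.2% of all. Both patterns together were found on 3 of the 9, all of Runx1, against 1.21% of all probe sets tested in both models. Since these values belong to the choice of the genes, nothing is read from those shares. The median log2 difference of the 9 was 0.31 in MLL-NRIP3 leukemia, where that of all probe sets was 0.00, and -0.11 in MLL-AF9 leukemia, where that of all was -0.01. The 6 Runx1 probe sets alone had medians of 0.51 and -0.12.

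With p-values adjusted by the Benjamini-Hochberg method over all probe sets tested and a threshold of 0.05, limma called 0 of the 9 in MLL-NRIP3 leukemia, where 0.907% of all probe sets were called, and 0 of the 9 in MLL-AF9 leukemia, where 6.33% were called. At an unadjusted p under 0.05 these counts were 5 of 9 in MLL-NRIP3 leukemia, where 17.2% of all probe sets passed, and 2 of 9 in MLL-AF9 leukemia, where 20.2% passed. The difference of the responses, MLL-NRIP3 minus MLL-AF9, passed the same threshold for 2 of the 9, both of Runx1, where 3.81% of all did. Nothing is read from these counts either, since the same values led to the choice of the genes. It was 1.11 ± 0.24 for 1422864_at and 0.80 ± 0.20 for 1452531_at on the log2 scale. It was 0.66 ± 0.18 for 1422865_at, 0.55 ± 0.16 for 1427650_a_at, 0.47 ± 0.18 for 1440878_at and 0.04 ± 0.12 for 1452530_a_at. The call of 1422864_at was lost when MLL-NRIP3 RictorΔ/Δ array 1 was left out, and that of 1452531_at when any 1 array other than MLL-NRIP3 Control 2 or 3 was left out. Both calls were lost with the replicate number as a block, and that of 1452531_at also with 1 spread shared by all 12 arrays and with separate fits of the models. Without both MLL-NRIP3 Control arrays 1 and 2 the differences were 1.21 and 0.64 and neither was called.

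**Figure D2:**
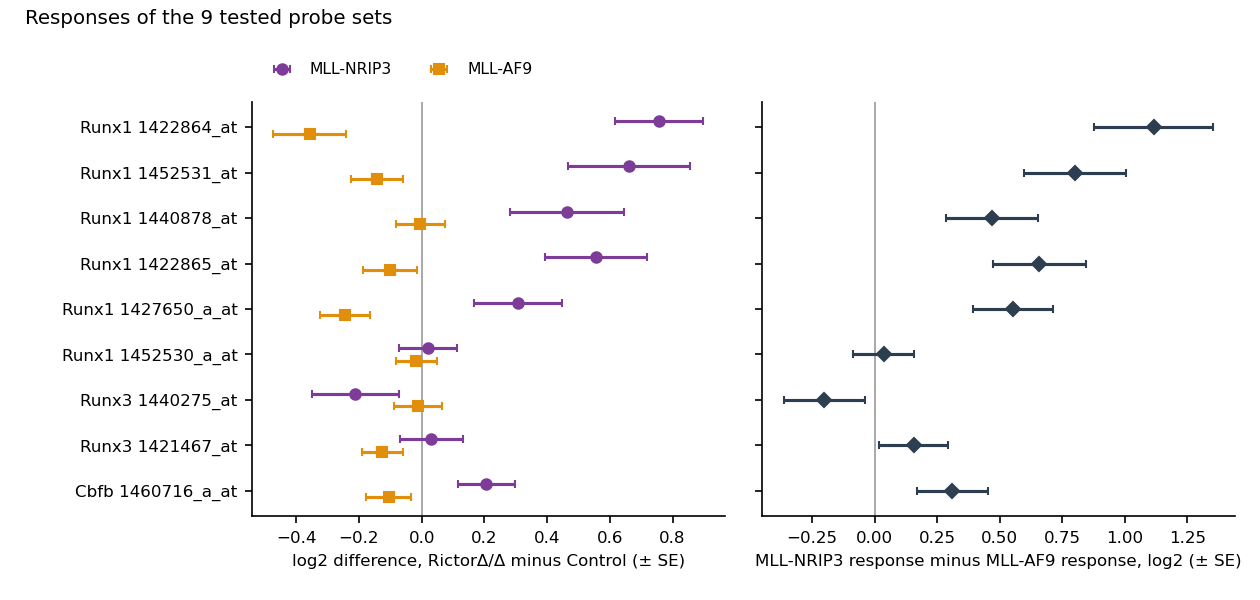
Left, log2 difference of RictorΔ/Δ minus Control (± SE) for the 9 tested probe sets in MLL-NRIP3 (circles) and MLL-AF9 leukemia (squares). Right, the MLL-NRIP3 response minus the MLL-AF9 response (± SE), which is 1.11 for Runx1 1422864_at, 0.04 for Runx1 1452530_a_at and -0.20 for Runx3 1440275_at.

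Cbfb, the subunit that all 3 Runx proteins need, was represented by 1460716_a_at. It read 1164, 1266 and 1249 in MLL-NRIP3 RictorΔ/Δ arrays against 1038, 1062 and 1083 in Controls. The groups did not overlap, yet the step was small, a log2 difference of 0.21 ± 0.09 or 1.15-fold, and 0.18 without Control arrays 1 and 2. It read 819, 838 and 740.4 in MLL-AF9 RictorΔ/Δ arrays against 792, 851 and 942 in Controls, which overlapped, at a log2 difference of -0.11 ± 0.07. That value was -0.04 without Control array 3, -0.05 without RictorΔ/Δ array 3 and -0.16 without Control array 1, so its size was not settled by these arrays. The difference of the responses was 0.31 ± 0.14.

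Runx3 had 2 probe sets and no such pattern. The brighter, 1440275_at, read 285, 277 and 295 in MLL-NRIP3 RictorΔ/Δ arrays against 292, 321 and 393 in Controls. The groups overlapped and the spread lay in the Controls, at means of 285 ± 8.95 and 335 ± 52.1 (SD, n = 3 each). Its log2 difference was -0.21 ± 0.14, but it rested on Control array 3, the array with the highest reading. It was -0.44 against that array alone and -0.10 without it. In MLL-AF9 leukemia it read 179, 172 and 167 in RictorΔ/Δ arrays against 186, 181 and 157 in Controls, a log2 difference of -0.01 ± 0.08. The dimmer, 1421467_at, read 24.3 to 28.9 in MLL-NRIP3 RictorΔ/Δ arrays against 24.5 to 27.1 in Controls, and 9.65 to 10.7 in MLL-AF9 RictorΔ/Δ arrays against 10.3 to 15.7 in Controls. Its log2 difference was 0.03 ± 0.10 in MLL-NRIP3 leukemia, and 0.06 without Control arrays 1 and 2. In MLL-AF9 leukemia it was -0.13 ± 0.07, but -0.05 without Control array 3, and -0.27 with 1 added in place of 16, since these readings lie below 16. The difference of the responses was -0.20 ± 0.16 for 1440275_at and 0.16 ± 0.14 for 1421467_at, so the 2 probe sets had opposite signs.

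**Figure D3:**
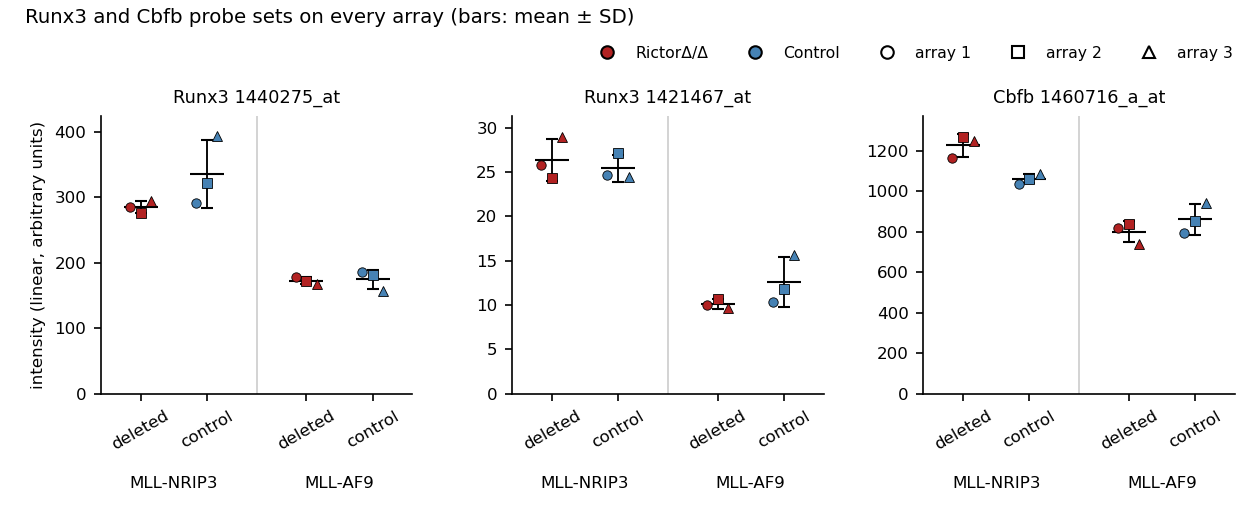
Linear intensity of the Runx3 and Cbfb probe sets on every array, RictorΔ/Δ in red left of Control in blue, MLL-NRIP3 left of MLL-AF9, with bars for the mean ± SD of 3 arrays. The genotypes overlap in every panel and model except for Cbfb in MLL-NRIP3 leukemia, where the RictorΔ/Δ arrays sit at 1164 and above and the Controls at 1083 and below.

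Runx1t1, a corepressor scaffold that mature blood cells hardly express, was near the floor of the arrays. Its 6 probe sets read between 1.66 and 6.61 on all 12 arrays, and 0 of the 6 passed the filter on dim probe sets, which stood at an intensity of 8.79 in MLL-NRIP3 and 6.11 in MLL-AF9 leukemia. The genotypes overlapped on all 6 in both models. The highest reading, 6.61 on 1440310_at, came from MLL-NRIP3 RictorΔ/Δ array 3. No statement on its direction can be made at this signal. Runx2 was not analysed here, since no probe set carried its symbol alone.

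Levels across the models are given as deposited and after quantile normalization over the 12 arrays, because the models are not on 1 scale, and no test was made between them. For Runx1 1422864_at the deposited means ran 214 in MLL-NRIP3 RictorΔ/Δ, 209 in MLL-AF9 Control, 159.6 in MLL-AF9 RictorΔ/Δ and 119.8 in MLL-NRIP3 Control arrays, of which the upper 2 groups overlapped. After quantile normalization the order was 254 in MLL-AF9 Control, 196 in MLL-AF9 RictorΔ/Δ, 184 in MLL-NRIP3 RictorΔ/Δ and 99.2 in MLL-NRIP3 Control arrays, with each of the upper 3 groups overlapping its neighbour. MLL-NRIP3 Control thus had the lowest mean of the 4 groups on either scale here, and also on 1452531_at and 1440878_at. On 1422865_at and 1452530_a_at it was lowest only after quantile normalization, and MLL-AF9 RictorΔ/Δ was lowest as deposited. On 1427650_a_at MLL-AF9 RictorΔ/Δ was lowest on either scale. Deposited means of 1427650_a_at were 56.0 in MLL-NRIP3 Control, 34.2 in MLL-AF9 Control and 26.3 in MLL-AF9 RictorΔ/Δ arrays. The order of the groups thus depended on the Runx1 probe set. For Runx3 1440275_at both scales gave the same order, deposited means of 335 in MLL-NRIP3 Control, 285 in MLL-NRIP3 RictorΔ/Δ, 175 in MLL-AF9 Control and 173 in MLL-AF9 RictorΔ/Δ arrays, with overlap within each model and none between the models. For Cbfb the deposited means ran 1226 in MLL-NRIP3 RictorΔ/Δ, 1061 in MLL-NRIP3 Control, 862 in MLL-AF9 Control and 799 in MLL-AF9 RictorΔ/Δ arrays, with the last 2 overlapping. After quantile normalization every neighbouring pair of Cbfb groups overlapped.

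The genes whose values most resembled those of a member were ranked by Pearson's r over the 12 arrays, after subtracting the mean of each model, among 11073 genes bright enough in both models. Closest to Runx1 1422864_at were Lrrc1 (r = 0.953), Zfp251 (0.931) and Lrrk2 (0.930). Closest to Cbfb were Pitpnm2 (0.952), Cfap97 (0.901) and Unc5a (0.886). Closest to Runx3 1440275_at were Ppp1cc (0.917), Rnf7 (0.905) and Apobec2 (0.894). The 95th percentile of r over the pool was 0.649 for Runx1, 0.589 for Cbfb and 0.576 for Runx3. None of the 9 genes was called in either model. The arrays share their normalization and the genes were picked as the highest of many, so these correlations are a description.

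Other genes of the Runx pathway were taken from 7 lists, each gene through its brightest probe set. Of all genes tested in this way, 1.14% were called in MLL-NRIP3 leukemia, 7.35% in MLL-AF9 leukemia and 4.41% for the difference of the responses. Adjusted p-values below are limma's, with Benjamini-Hochberg adjustment over all probe sets tested. Without MLL-NRIP3 Control arrays 1 and 2, the 5 pathway genes called in MLL-NRIP3 leukemia lost their call, at 0.12 to 0.27. Their log2 differences were then 1.51 for Fos, 1.28 for Itga2b, 1.84 for Cd34, -1.25 for Itgal and 0.66 for Hoxa5. With 1 spread shared by all 12 arrays, all pathway genes named below as called in MLL-AF9 leukemia other than Ets1 and Itgal lost theirs, at 0.052 to 0.72.

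For partners and coactivators of Runx proteins, the shares to compare are the 1.14% and 7.35% of all genes called in MLL-NRIP3 and MLL-AF9 leukemia. In MLL-NRIP3 leukemia 1 of 27 tested was higher and 0 lower, with a median log2 difference of -0.01 where that of all genes was 0.00. The 1 was Fos, an AP-1 subunit that binds DNA beside Runx, which rose by 1.53 ± 0.22 (adjusted p = 0.025). The call was lost without MLL-NRIP3 Control array 1 (0.071) or 2 (0.11) or RictorΔ/Δ array 1 (0.088) or 2 (0.064). In MLL-AF9 leukemia 2 of 27 were higher and 2 lower, with a median of -0.01, as for all genes. Ets1, an ETS factor that binds DNA together with Runx1, read 152, 129 and 110.0 in RictorΔ/Δ arrays against 52.1, 63.1 and 46.4 in Controls. It rose by 1.06 ± 0.12 (adjusted p = 0.00029) and remained called under all 16 alternatives of that comparison. Smad3, a transducer of TGF-beta signals that binds Runx factors, fell by 0.48 ± 0.09 (adjusted p = 0.01), and Myb, a progenitor factor, had a log2 difference of -0.27 (adjusted p = 0.011, and 0.056 without RictorΔ/Δ array 1). Fli1, an ETS factor of the megakaryocyte line, rose by 0.36 (adjusted p = 0.044), a call lost without Control array 1 (0.067) or 2 (0.12) or RictorΔ/Δ array 2 (0.13) or 3 (0.17). Smad3 was also lower in all 3 RictorΔ/Δ arrays of MLL-NRIP3 leukemia, at -0.99 ± 0.20, and was not called there (adjusted p = 0.064). For the difference of the responses 1 of 26 was called higher and 0 lower.

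The list of Runx corepressors and the ETO family also holds E proteins, and its genes called in MLL-AF9 leukemia were lower. Cbfa2t3 was the only relative of Runx1t1 among those called there. There 0 of 26 tested were higher and 4 lower, with a median of -0.05 where that of all genes was -0.01. Cbfa2t3 (Eto2), the blood-expressed relative of Runx1t1, read 185, 155 and 199 in RictorΔ/Δ arrays against 274, 273 and 303 in Controls and fell by 0.62 ± 0.09 (adjusted p = 0.0016). Tcf4, an E protein, fell by 0.43 ± 0.06 (adjusted p = 0.0014). Tcf3, another E protein, fell by 0.39 ± 0.09 (adjusted p = 0.021), a call lost without Control array 3 (0.066) or RictorΔ/Δ array 2 (0.074) or 3 (0.094). Dnmt3a, a DNA methyltransferase, had -0.28 ± 0.07 (adjusted p = 0.047) and lost its call, at 0.066 to 0.18, without any 1 array. In MLL-NRIP3 leukemia 0 of 26 were called, with a median of -0.04, and Cbfa2t3 read 401, 305 and 418 in RictorΔ/Δ arrays against 351, 441 and 299 in Controls. Tcf4 was lower in all RictorΔ/Δ arrays of that model too, at a log2 difference of -0.54 ± 0.22 (adjusted p = 0.25). The difference of the Cbfa2t3 responses was 0.67 ± 0.21 (adjusted p = 0.1) and was not called.

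Enzymes that phosphorylate, methylate or ubiquitinate Runx proteins gave 0 calls among 25 tested in MLL-NRIP3 leukemia, with a median of 0.09, and 2 higher and 0 lower among 26 in MLL-AF9 leukemia, with a median of 0.01. Pim1, a kinase that phosphorylates Runx factors, rose by 0.56 ± 0.10 (adjusted p = 0.0078). Cdc20, an activator of the anaphase ubiquitin ligase, rose by 0.50 ± 0.09 (adjusted p = 0.0069).

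**Figure D4:**
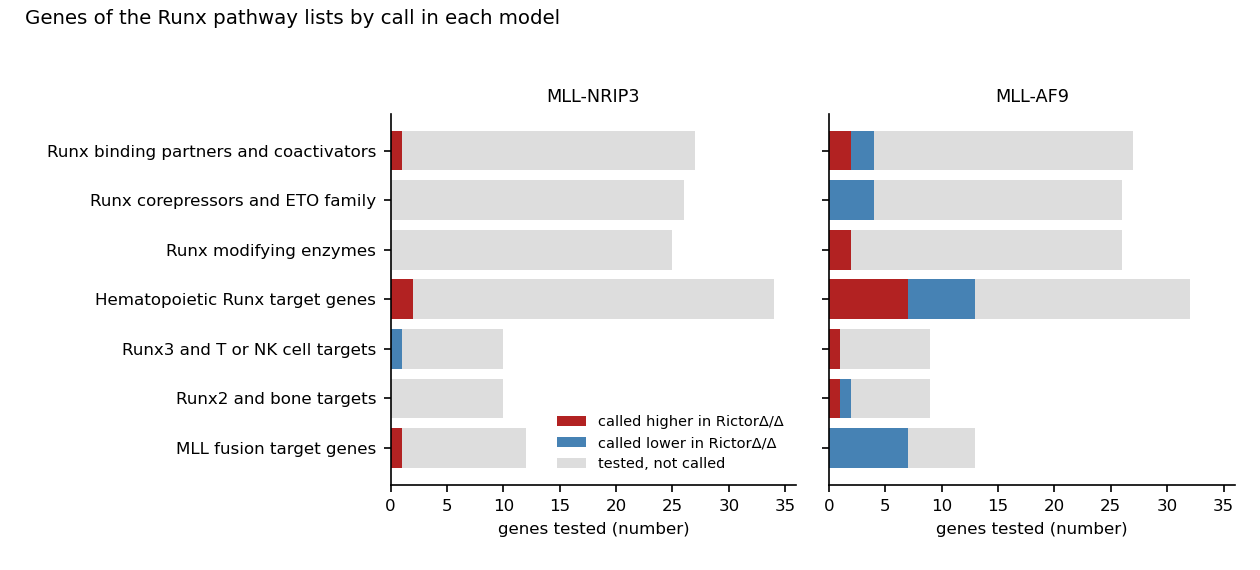
Number of genes of each Runx pathway list that were called higher in RictorΔ/Δ (red), called lower in RictorΔ/Δ (blue) or tested and not called (grey), in MLL-NRIP3 (left) and MLL-AF9 leukemia (right). The list of blood Runx targets has 2 genes called of 34 in MLL-NRIP3 and 13 of 32 in MLL-AF9 leukemia.

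Genes described as Runx targets in blood cells moved in both directions in MLL-AF9 leukemia. In MLL-NRIP3 leukemia 2 of 34 tested were higher and 0 lower, with a median of 0.08 where that of all genes was 0.00, and 1 was called when the probe sets of a gene were averaged. In MLL-AF9 leukemia 7 of 32 were higher and 6 lower, with a median of 0.02 where that of all genes was -0.01. Itga2b, the platelet integrin CD41, read 109, 108 and 135 in MLL-NRIP3 RictorΔ/Δ arrays against 43.1, 46.0 and 38.6 in Controls. It rose by 1.18 ± 0.15 (adjusted p = 0.012), and the call was lost without Control array 2 (0.072) or RictorΔ/Δ array 1 (0.056). In MLL-AF9 leukemia it read 52.2, 45.2 and 54.6 in RictorΔ/Δ arrays against 69.0, 68.4 and 65.0 in Controls. It was lower by a log2 difference of -0.33 ± 0.08 (adjusted p = 0.042), a call lost without any 1 array at 0.064 to 0.17. The difference of its responses was 1.51 ± 0.17 (adjusted p = 0.00017).

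Cd34, a surface protein of progenitors, had the same signs. It read 833, 564 and 967 in MLL-NRIP3 RictorΔ/Δ arrays against 376, 284 and 203 in Controls, and rose by 1.41 ± 0.25 (adjusted p = 0.04). That call was lost without Control array 1 (0.052) or 2 (0.15) or RictorΔ/Δ array 1 (0.15) or 3 (0.08). In MLL-AF9 leukemia Cd34 read 408, 335 and 456 in RictorΔ/Δ arrays against 567, 501 and 560.0 in Controls, with a log2 difference of -0.44 ± 0.10 (adjusted p = 0.021), a call lost without Control array 1 (0.06) or 3 (0.072) or RictorΔ/Δ array 1 (0.056) or 2 (0.067). The difference of the responses was 1.85 ± 0.28 (adjusted p = 0.0021). It remained called under all 23 alternatives run for it, as did those of Itga2b and Itgal. In MLL-AF9 leukemia the calls with the smallest p in this list were of granule genes, Lyz2, lysozyme, at 1.21 ± 0.11 (adjusted p = 5e-05), Camp, a granule antimicrobial peptide, at 1.34 ± 0.12 (adjusted p = 8.1e-05) and Elane, neutrophil elastase, at 0.68 ± 0.09 (adjusted p = 0.00088). For the difference of the responses 5 of 34 were called higher and 2 lower.

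**Figure D5:**
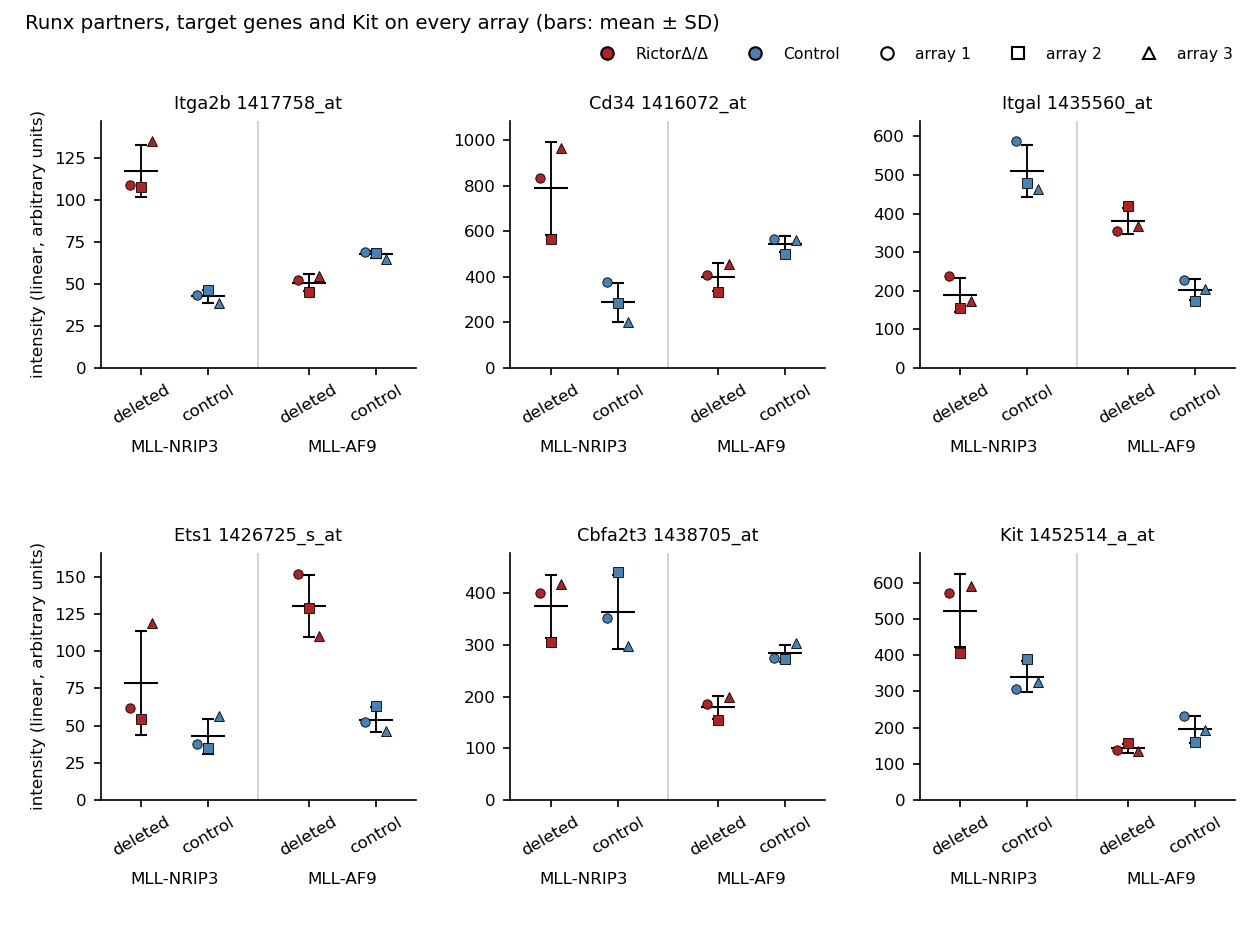
Linear intensity of the Runx targets Itga2b, Cd34 and Itgal, the partner Ets1, the corepressor Cbfa2t3 and Kit on every array, RictorΔ/Δ in red left of Control in blue, MLL-NRIP3 left of MLL-AF9, with bars for the mean ± SD of 3 arrays. Itga2b and Cd34 lie higher in RictorΔ/Δ arrays of MLL-NRIP3 leukemia and lower in those of MLL-AF9 leukemia, and Itgal lies the other way in both.

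Runx3 and T or NK cell targets were often too dim to test, with 10 of 20 tested in MLL-NRIP3 and 9 of 20 in MLL-AF9 leukemia. Itgal, the integrin chain CD11a and a Runx3 target in T cells, was the 1 gene called in each model. It read 238, 154 and 173 in MLL-NRIP3 RictorΔ/Δ arrays against 588, 480.0 and 463 in Controls and had a log2 difference of -1.38 ± 0.18 (adjusted p = 0.014), a call lost without Control array 1 (0.053) or 2 (0.078). It read 356, 419 and 369 in MLL-AF9 RictorΔ/Δ arrays against 229, 174 and 205 in Controls, 0.87 ± 0.09 (adjusted p = 0.00028). The difference of its responses was -2.24 ± 0.22 (adjusted p = 6.3e-05). Of the bone targets of Runx2, 0 of 10 tested were called in MLL-NRIP3 leukemia, and 1 of 9 was higher and 1 lower in MLL-AF9 leukemia. The gene called higher was Mmp9, a gelatinase stored in neutrophil granules, at 1.06 ± 0.14 (adjusted p = 0.00082), and the lower was Tcf4, given above.

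Targets of MLL fusions, which Runx1 has been reported to share, were lower in MLL-AF9 leukemia wherever they were called there. In MLL-NRIP3 leukemia 1 of 12 tested was higher and 0 lower, with a median of 0.42. In MLL-AF9 leukemia 0 of 13 were higher and 7 lower, with a median of -0.26. Hoxa5, a homeobox factor, read 984, 1008 and 1028 in MLL-NRIP3 RictorΔ/Δ arrays against 387, 382 and 630.3 in Controls and rose by 1.12 ± 0.18 (adjusted p = 0.036). The call was lost without any 1 array other than Control array 3, at 0.064 to 0.14. In MLL-AF9 leukemia Flt3, a cytokine receptor, fell by 0.46 ± 0.09 (adjusted p = 0.0089) and Eya1, a developmental phosphatase, by 0.54 ± 0.11 (adjusted p = 0.012). Flt3 was also lower in MLL-NRIP3 RictorΔ/Δ arrays, at 417, 378 and 372 against 1500, 715 and 670 in Controls. That log2 difference was -1.17 ± 0.27 and was not called (adjusted p = 0.087). For the difference of the responses 4 of 13 were called higher and 0 lower.

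Markers of other cells moved with the genotypes, and their part in the Runx values was not tested. The summed intensity of 14 mature neutrophil genes was 3796 to 8385 in MLL-NRIP3 RictorΔ/Δ arrays against 8526 to 26051 in Controls, with 0 of 13 tested called higher and 4 lower. Control array 3 was the Control at 8526, close to the highest RictorΔ/Δ array. The 4 (Stfa2l1, S100a9, Ngp and S100a8) lost their calls without Control arrays 1 and 2, at adjusted p of 0.062 to 0.31, where the log2 difference of Ngp was -2.26 against -3.58 with them and that of S100a8 was -1.29 against -2.34. Each of the 4 also lost its call without Control array 2 or without RictorΔ/Δ array 1 or 2, Ngp and S100a8 without Control array 1, and all but Ngp without RictorΔ/Δ array 3. The sum was 34259 to 37051 in MLL-AF9 RictorΔ/Δ arrays against 10902 to 15958 in Controls, with 14 of 14 called higher, where 7.35% of all genes were called. With 1 spread shared by all 12 arrays S100a8, Camp and Mmp9 lost that call, at adjusted p of 0.24, 0.51 and 0.21. Stfa2l1, Lcn2 and Cd177 kept theirs. The sum of 8 megakaryocyte and platelet genes, a line that expresses Runx1 strongly, was 186 to 237 in MLL-NRIP3 RictorΔ/Δ arrays against 119.7 to 128 in Controls, and 140.1 to 143 in MLL-AF9 RictorΔ/Δ arrays against 140.0 to 155 in Controls. Itga2b, 1 of the 8, read 109, 108 and 135 in MLL-NRIP3 RictorΔ/Δ arrays against 43.1, 46.0 and 38.6 in Controls. The median log2 difference of the 6 megakaryocyte genes tested in MLL-NRIP3 leukemia was 0.10. The sum of 8 mast cell and basophil genes was 1069.5 to 2658 in MLL-NRIP3 RictorΔ/Δ arrays against 615 to 749 in Controls, and 427 to 552 in MLL-AF9 RictorΔ/Δ arrays against 574 to 665 in Controls. That of 10 B cell genes was 122 to 173 in MLL-NRIP3 RictorΔ/Δ arrays against 277 to 1212 in Controls, and 1283 to 1445 in MLL-AF9 RictorΔ/Δ arrays against 1551 to 1760.4 in Controls. Ighm alone read 59.6, 35.4 and 60.2 in MLL-NRIP3 RictorΔ/Δ arrays against 1113, 759 and 195 in Controls. The median log2 difference of the 7 B cell genes tested in MLL-NRIP3 leukemia was -0.01. The sum of 10 monocyte and macrophage genes was 1243 to 1963 in MLL-NRIP3 RictorΔ/Δ arrays against 1112 to 2524 in Controls, and 1631 to 1776 in MLL-AF9 RictorΔ/Δ arrays against 1991.5 to 2214 in Controls, where 6 of 10 were called lower. Calls in the other lists are given in turn. Of megakaryocyte genes 1 of 6 was higher in MLL-NRIP3 and 1 of 6 lower in MLL-AF9 leukemia, Itga2b both times. Of mast cell genes 1 of 5 was higher in MLL-NRIP3 and 1 of 6 lower in MLL-AF9 leukemia, Hdc both times. The MLL-NRIP3 call of Hdc was lost without Control array 2 (0.078), RictorΔ/Δ array 1 (0.059) or Control arrays 1 and 2 (0.2), and the MLL-AF9 call without RictorΔ/Δ array 2 (0.061) or 3 (0.097). Of B cell genes 1 of 7 was lower in MLL-NRIP3 leukemia, Ighm, and 2 of 9 in MLL-AF9 leukemia. The MLL-NRIP3 call of Ighm was lost without any 1 array other than Control array 3, at 0.066 to 0.15. Its log2 difference there was -1.66 without Control arrays 1 and 2, against -3.09 with them. Of monocyte genes 0 of 6 tested were called in MLL-NRIP3 leukemia. Of the T cell, NK cell, erythroid and stromal genes tested, 0 were called in either model.

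The share of promoters with TGTGGT on either strand among genes called higher was 11.5% (6 of 52) in MLL-NRIP3 leukemia and 22.9% (81 of 354) in MLL-AF9 leukemia. Among genes called lower it was 17.5% (10 of 57) and 16.1% (61 of 379), and among all genes tested with a promoter window 15.2% and 15.6%. These are counts of letters in 1 window per start site and say nothing of Runx binding.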

How the data were processed

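RNA of 4 groups of 3 samples was measured on Affymetrix arrays. Each deposited value is the intensity of 1 probe set on 1 array, on a linear scale. The probe summary, background correction and normalization that the authors applied were not given in any source used. Sample titles supplied the groups and replicate numbers, and gene names came from the platform annotation. The 932 probe sets with several symbols were not used.

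Tests ran on log2(intensity + 16) with limma 3.58.1 in R 4.3.3 (lmFit, eBayes with a trend, 2-sided), in the 6 arrays of each model. The difference of the responses was fitted to all 12 arrays with a variance factor for each model (arrayWeights). Probe sets whose mean fell below the 40th percentile were left out, and the Benjamini-Hochberg adjustment ran over 22594, 22342 and 22531 probe sets (MLL-NRIP3, MLL-AF9, difference). The fits were checked on simulated data. Python 3.11.15 with pandas 2.3.3 made the tables and matplotlib 3.10.9 the figures.

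The genes, the 7 pathway lists, the 10 marker lists and the tests were chosen with earlier results of these data known. Genes named from a list were up to 4 called with the smallest p per model and for the difference of the responses, and by likeness the 3 with the highest r. The MLL-AF9 values of Itga2b and Cd34 and the MLL-NRIP3 values of Smad3, Tcf4 and Flt3 were named after they were seen. The genes Xist, Hdc, Ighm, Stfa2l1, S100a8, S100a9, Ngp, Jun, Nedd4l, Tle5, Tspan32, Hoxa9 and Hoxa10 were also named after their values were seen. Alternatives were other pseudocounts, filters, normalizations and moderation, 1 probe set per gene, a shared spread, a replicate block and leaving out arrays. Median centring, leaving out Control arrays 1 and 2 of MLL-NRIP3, and separate fits for the difference were added after seeing the data.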

Additional observations from a re-analysis of the deposited data

Results flagged for a closer look

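The genotype difference ran opposite ways in the 2 models on 3 Runx1 probe sets, where every RictorΔ/Δ array lay above every Control in MLL-NRIP3 leukemia and below every Control in MLL-AF9 leukemia. Of all probe sets tested in both models 1.21% did so. The other 3 Runx1 probe sets overlapped in MLL-AF9 leukemia. There the nearest arrays of 1422864_at read 180.7 and 181.4, and the log2 difference of 1452531_at was only -0.14 ± 0.08. The log2 response in MLL-NRIP3 minus that in MLL-AF9 was 1.11 for 1422864_at, 0.803 for 1452531_at and 0.553 for 1427650_a_at. Since the genes were chosen with these values known, the difference was not tested independently.

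Among the named pathway genes, the test of the difference itself (limma, adjusted over all probe sets) passed the threshold for 13. Genes were named partly for passing this test, so nothing is read from that count. Of all genes tested through their brightest probe set 4.41% passed. The response was higher in MLL-NRIP3 leukemia for Jun (3.48, adjusted p = 0.021), Cd34 (1.85, 0.0021), Hoxa5 (1.61, 0.0038), Itga2b (1.51, 0.00017), Meis1 (0.925, 0.028), Hoxa10 (0.802, 0.048), Nedd4l (0.709, 0.034) and Hoxa9 (0.637, 0.026). It was lower in MLL-NRIP3 leukemia for Camp (-4.64, 0.0013), Itgal (-2.24, 6.3e-05), Mmp9 (-1.67, 0.036), Tspan32 (-0.898, 0.0081) and Tle5 (-0.791, 0.021). When each of the 12 arrays was left out in turn, the calls of Itga2b, Cd34, Itgal, Camp and Hoxa5 were lost 0 times. That of Tspan32 was lost once (0.051, without MLL-NRIP3 RictorΔ/Δ array 1), that of Jun 3 times, of Tle5 4, of Meis1, Nedd4l and Hoxa9 5 each, of Mmp9 9 and of Hoxa10 10 times. Without MLL-NRIP3 Control arrays 1 and 2 together, those of Itga2b, Cd34, Itgal and Camp were kept and those of the other 9 were lost, Hoxa5 at 0.11. In MLL-AF9 leukemia genotype and sex of the donor cells cannot be told apart, which bears on every value here.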

How the results depend on the processing

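Of 491 log2 values of the 9 tested probe sets under the alternatives, 33 moved by more than the spread between replicates or lost their call, and 458 did neither. The value of Runx1 1422864_at kept its sign under every alternative run, in 17 of 17 for MLL-NRIP3 leukemia, 16 of 16 for MLL-AF9 leukemia and 24 of 24 for the difference. The filters, the moderation, the replicate block, the shared spread, 1 probe set per gene and separate fits leave the log2 value of every member unchanged. Part of the 458 could therefore not move, and the sign of 1422864_at could change only under the other pseudocounts, normalizations and omissions of arrays. The value was 0.5943 in MLL-NRIP3 leukemia with a pseudocount of 64. Where 0 of 9 were called in MLL-NRIP3 leukemia, 1422864_at was called with a pseudocount of 1, the filter at the 60th percentile, no trend, 1 probe set per gene or without Control array 3, and 4 Runx1 probe sets with 1 spread shared by all 12 arrays. Of all probe sets 230 of 22594, 230 of 15777, 127 of 22594, 193 of 12585, 1113 of 22594 and 2904 of 22594 were called under these in turn. Nothing is read from these calls of members, since the same values led to the choice of the genes.

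In MLL-NRIP3 leukemia 205 probe sets were called in all, 117 without the filter on dim probe sets, 127 without the trend, 2904 with the shared spread, 10 without Control arrays 1 and 2, and 34 to 1113 when 1 array was left out. In MLL-AF9 leukemia 1414 were called, 241 with the shared spread and 708 to 1326 when 1 array was left out. For the difference 859 were called, 333 without MLL-NRIP3 Control arrays 1 and 2 and 392 to 1508 when 1 array was left out. The difference of Runx1 1422864_at was 1.207 without those Controls, where its call was lost, and 0.9958 to 1.205 when 1 array was left out.

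Deviations of arrays with the same replicate number from their group means were little correlated (r of -0.116 to 0.0483 in the 6 pairs). What the number stands for is not given, and whether such arrays shared a donor or a batch was not tested. With the replicate block 160, 1312 and 664 probe sets were called in MLL-NRIP3 leukemia, in MLL-AF9 leukemia and for the difference, and the difference of Runx1 1422864_at was 1.115 but, like that of 1452531_at, no longer called. The number of arrays limits the precision, and readings near the floor, as for Runx1t1, carry no direction.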
